A study of Mus musculus with 35 samples.

Results

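The microRNA miR-590 is made as a hairpin from which 2 mature strands, or arms, can be cut, miR-590-5p and miR-590-3p, and its expression was followed in mouse liver after a single dose of N-ethyl-N-nitrosourea (ENU), an alkylating agent that damages DNA. The 2 arms, mmu-miR-590-3p and mmu-miR-590-5p on the array, are the assays of that hairpin among the 376 miRNA assays of a PCR array. They were chosen by their measured levels on these same arrays, since miR-590-3p was higher together with the miR-34 family and miR-590-5p was higher at post-treatment day (PTD) 30. The levels of miR-590-3p at every PTD and of miR-590-5p at PTD 30 are therefore descriptions without a test.

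All 35 mice were six-month-old females when injected. They were of the Big Blue line, which carries a transgene used for counting mutations, and each gave 1 liver sample and 1 array. ENU was injected once into the peritoneum at 120 mg/kg, and livers were taken at PTDs 1, 3, 7 and 15 (5 mice each) and at PTDs 30 and 120 (4 mice each). The 7 controls received only the vehicle, dimethylsulfoxide (DMSO). By their labels 3 controls belong to day 1 and 4 to day 30, while the Methods of the study give 4 and 3, so they were used as 1 group. No control is labelled day 120, so the PTD 120 mice were older at sampling than any control. Whole liver pieces were extracted, so that fewer cells of a type and less RNA per cell cannot be told apart.

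A miRNA guides the silencing machinery to messenger RNAs that pair with it, mainly through bases 2 to 8 from its 5′ end, the seed. Arms of 1 hairpin are transcribed together but differ in sequence, and usually 1 of them is kept in the silencing complex while the other is degraded. The miR-590 hairpin lies within an intron of Eif4h, the gene of a translation initiation factor (chr5:134619872-134639409 in GRCm38.p6, RefSeq). miR-590-5p has the seed of miR-21, an abundant miRNA that is often higher in tumours and in injured liver, whereas miR-590-3p has a different, A- and U-rich one. The miR-34 family is activated by the tumour suppressor p53 when DNA is damaged.

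The RefSeq sequences of miR-21 and of 2 miR-34 members, miR-34a and miR-34b-5p, are shown here because the first gives the seed of miR-590-5p and the others share a seed with each other. The sequence of miR-34c, a further member, was not used here. The seed is in capitals, and positions are those of the mature strand in GRCm38.p6.
miR-21 (miR-21a-5p, chr11:86584120-86584141, minus strand): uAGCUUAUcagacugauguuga
miR-34a (miR-34a-5p, chr4:150068473-150068494, plus strand): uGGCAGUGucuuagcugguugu
miR-34b-5p (chr9:51103610-51103632, minus strand): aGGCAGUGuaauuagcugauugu
Apart from miR-590-5p, whose sequence was not used here, 2 mature mouse miRNAs of the RefSeq table carried the seed AGCUUAU, miR-21a-5p and miR-21c, and of these miR-21a-5p had an assay on the array.

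Both arms were measured late in the PCR. A threshold cycle (Ct) is the cycle at which a well crosses a fixed fluorescence, so that a higher Ct stands for less RNA, and 40 cycles were run. The Ct of miR-590-3p lay between 32.1 and 38.0 with a mean of 34.3, and 11 of the 376 assays had a higher mean Ct. The Ct of miR-590-5p lay between 31.3 and 37.4 with a mean of 33.6, and 28 assays had a higher one, against a median of 29.4 over all assays. Every one of the 70 wells of the 2 arms gave a Ct, but 9 wells of miR-590-3p and 5 of miR-590-5p were above 35. The instrument software marked 1 of the 70 wells as not amplified, the miR-590-3p well of control replicate 1 labelled day 1, which had the highest Ct of the arm. The liver origin of the samples was checked against hepatocyte miRNAs. miR-122 had the lowest mean Ct of all assays, 14.5, with miR-194 in the third and miR-192 in the fifth place.

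Levels are given as -ΔCt, the mean Ct of the 4 reference RNAs snoRNA251, snoRNA202, snoRNA142 and U6 minus the Ct of the assay, on a log2 scale on which 1 unit is 1 doubling. Amplification efficiency differs between assays, so the 2 arms were compared in their changes and not in their levels. Between mice of 1 group the arms varied more than most miRNAs. The pooled SD within groups was 1.36 for miR-590-3p and 1.28 for miR-590-5p, against a median of 0.747 over the 376 assays, and 29 and 42 assays respectively had a larger SD.

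In the controls the -ΔCt of miR-590-3p was -16.89, -14.11 and -13.39 for the mice labelled day 1 and -14.21, -11.91, -10.77 and -11.22 for those labelled day 30. The controls thus spread over about 6 units, with the day 30 label mostly above the day 1 label. The 5 mice of PTD 7 had -10.83, -10.67, -10.57, -10.25 and -10.56, and the 5 of PTD 15 had -10.11, -10.83, -10.84, -11.65 and -10.31. These 2 groups were the highest and lay above 6 and 5 of the 7 controls respectively in every mouse, but overlapped the rest. The PTD 3 mice had -12.99, -14.32, -12.87, -9.76 and -10.59 and fell on both sides of the control mean. The PTD 1 mice had -12.45, -13.92, -14.42, -12.12 and -13.70, all within the range of the controls. The PTD 30 mice had -11.37, -13.41, -12.55 and -14.23, and the PTD 120 mice had -12.44, -12.61, -13.53 and -12.88. At PTDs 1, 30 and 120 miR-590-3p was thus below every mouse of PTD 7, and the means were highest at PTDs 7 and 15. At PTD 3, 2 of the 5 mice were at the level of these groups, among them the highest value of all 35 mice, -9.76.

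The mean -ΔCt of miR-590-3p was -10.58 ± 0.213 (SD, n = 5) at PTD 7 and -10.75 ± 0.598 (n = 5) at PTD 15. It was -12.11 ± 1.88 (n = 5) at PTD 3, -12.87 ± 0.475 (n = 4) at PTD 120 and -12.89 ± 1.22 (n = 4) at PTD 30. The lowest means were -13.22 ± 2.12 (n = 7) in the controls and -13.32 ± 0.989 (n = 5) at PTD 1. In this order only the steps from PTD 15 to PTD 3 and from PTD 3 to PTD 120 exceeded 0.5 units, and both were smaller than the SD at PTD 3. The differences from the controls were 2.64 ± 0.846 (SE) at PTD 7 and 2.47 ± 0.876 at PTD 15, which are folds of 6.22 and 5.53, and 1.11 ± 1.04 at PTD 3. Elsewhere (PTDs 1, 30 and 120) they were -0.11, 0.33 and 0.35, each smaller than its SE. The arm was chosen for these differences. At no PTD did every ENU mouse lie above every control. Over all 376 assays that was so for 0.266% (PTD 1), 1.6% (PTD 3), 2.13% (PTD 7), 7.71% (PTD 15), 1.33% (PTD 30) and 0.798% (PTD 120).

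**Figure D1:**
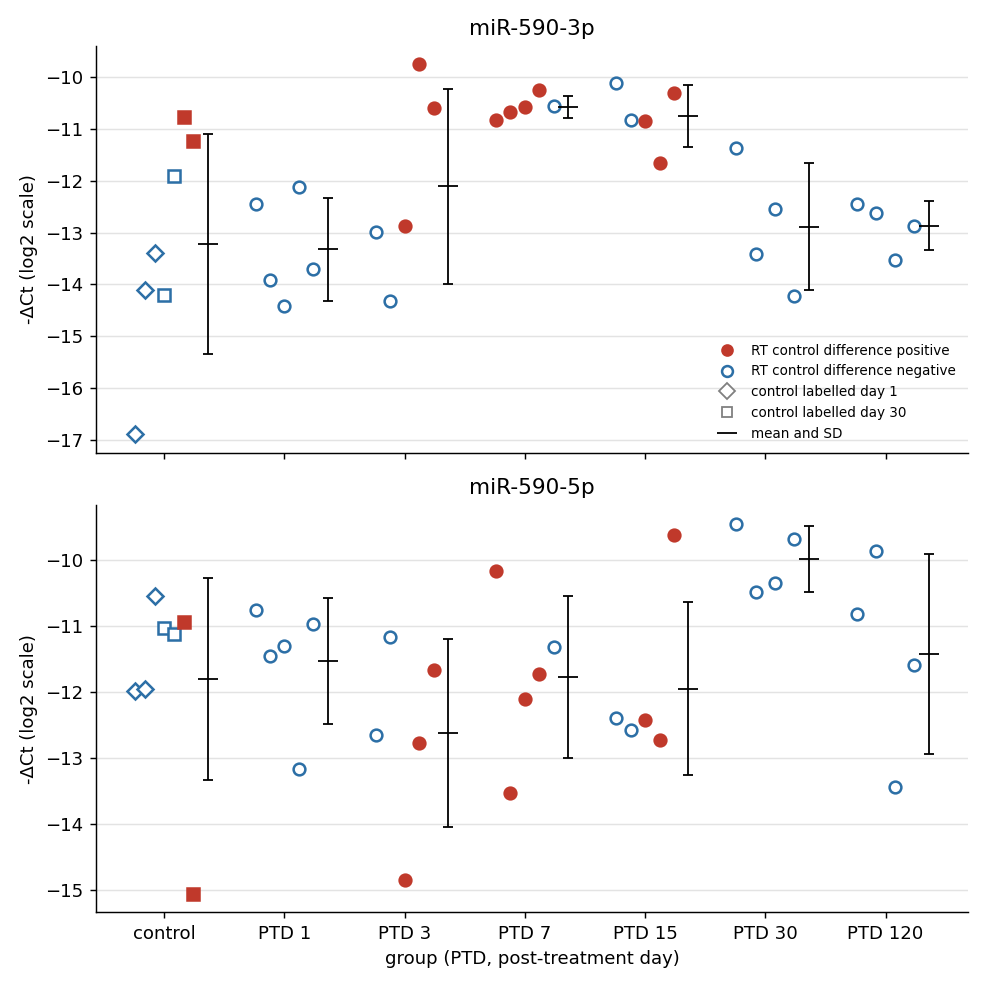
The -ΔCt of miR-590-3p (top) and miR-590-5p (bottom), on a log2 scale, for each of the 35 mice by group, with the mean and SD beside each group; filled red marks have a positive and open blue marks a negative difference of the 2 reverse transcription (RT) control wells, and diamonds and squares are controls labelled day 1 and day 30. miR-590-3p was highest at PTDs 7 and 15, with means of -10.58 and -10.75, where the 2 controls with a positive difference also lay, and miR-590-5p was highest at PTD 30, with a mean of -9.99.

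The size of the miR-590-3p difference depended on which controls it was set against. Against the 3 controls labelled day 1, of which all were run in the same period as the PTD 7 and PTD 15 arrays, it was 4.22 ± 0.656 at PTD 7 and 4.05 ± 0.738 at PTD 15. Against the 4 labelled day 30 it was 1.45 ± 0.600 and 1.28 ± 0.661. At PTDs 1, 30 and 120 the sign turned with the label, from 1.47, 1.91 and 1.93 against the day 1 controls to -1.29, -0.86 and -0.84 against the day 30 controls, and at PTD 3 the difference went from 2.69 to -0.08. Without control replicate 1 labelled day 1, whose well was marked as not amplified, it was 2.02 (PTD 7), 1.85 (PTD 15) and 0.50 (PTD 3). With Ct values above 35 set to 35 it was 2.01 at PTD 7 and 1.84 at PTD 15. With the median Ct of the array in place of the reference RNAs it was 2.94 at PTD 7 and 2.50 at PTD 15, and the median difference of all 376 assays against the reference RNAs was 0.185 and 0.36 at these PTDs. miR-590-3p at PTDs 7 and 15 was above the controls under each of these settings.

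The arrays carry 2 wells of the same reverse transcription control, which is not among the miRNA assays. What a gap between these 2 wells of an array reflects was not tested. The Ct of the first minus that of the second was positive in 12 arrays and negative in 23. All 12 belonged to 4 groups, with 4 of the 5 PTD 7 arrays, 3 of 5 at PTD 15, 3 of 5 at PTD 3 and 2 of the 7 controls. The -ΔCt of miR-590-3p had a median of -10.72 (-12.87 to -9.76) in the 12 arrays with a positive difference and of -12.99 (-16.89 to -10.11) in the other 23. Within the controls, the 2 arrays with a positive difference had a mean of -11.00 and the 5 with a negative one of -14.10, and within PTD 3 the means were -11.07 (3 arrays) and -13.66 (2 arrays). The split did not appear within PTDs 7 and 15. At PTD 7 the single array with a negative difference had -10.56, against a mean of -10.58 for the other 4, and at PTD 15 the 2 with a negative difference had a mean of -10.47, against -10.93 for the other 3. The RT control difference of these 3 arrays was close to 0, however, between -0.026 and -0.0085.

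Set only against arrays of the same sign, the differences at PTDs 7 and 15 changed. Among arrays with a negative difference, miR-590-3p was 3.54 ± 1.39 above the controls at PTD 7 (1 against 5 arrays) and 3.63 ± 1.06 at PTD 15 (2 against 5). Among arrays with a positive difference, it was 0.41 ± 0.343 above at PTD 7 (4 against 2) and 0.06 ± 0.537 at PTD 15 (3 against 2), and -0.08 ± 0.884 at PTD 3 (3 against 2). The 2 controls with a positive difference were also the only arrays of the latest of 3 run periods. With the RT control difference as a covariate the differences were 1.57 ± 0.640 at PTD 7 and 1.66 ± 0.666 at PTD 15. Its part in the level of miR-590-3p was not tested beyond the relation across mice that follows.

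**Figure D2:**
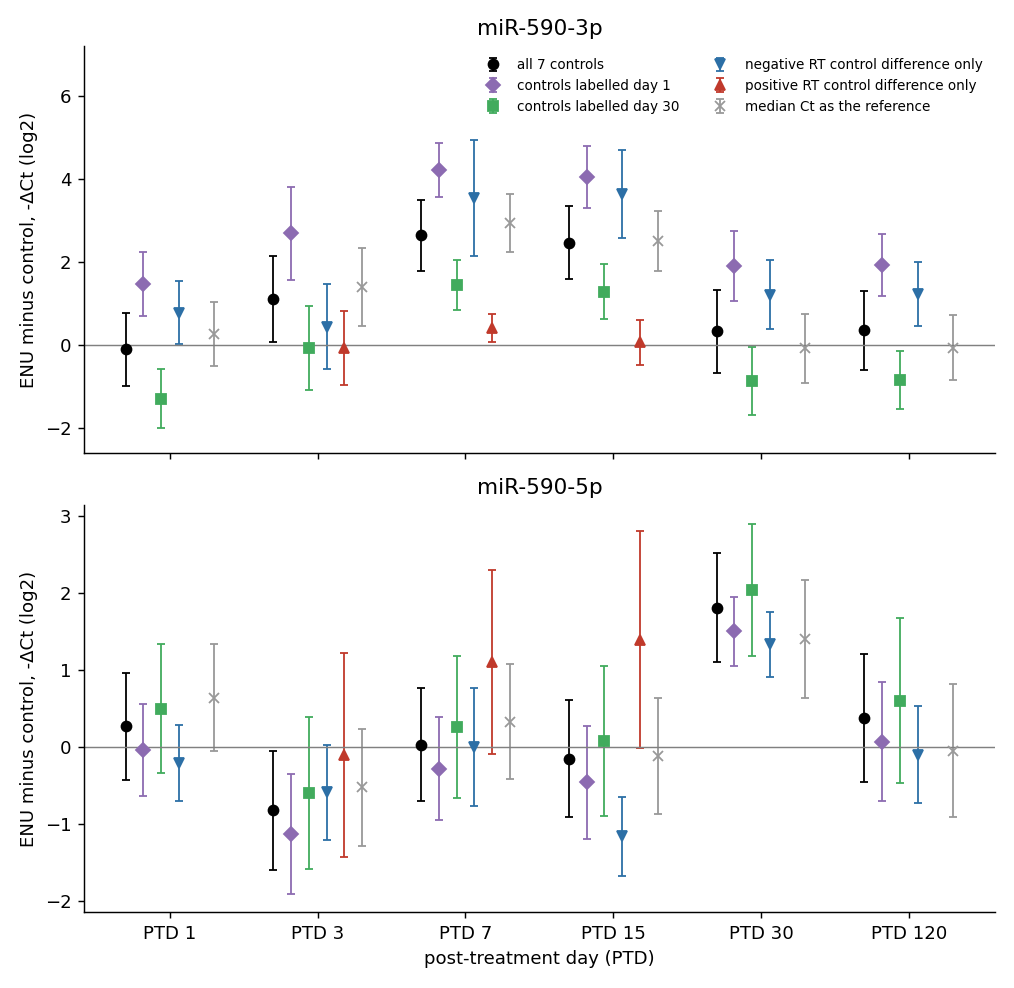
The difference of the mean -ΔCt of each ENU group from the controls, in log2 units, for miR-590-3p (top) and miR-590-5p (bottom) at each PTD; points are estimates, bars are 1 standard error, and colours and shapes mark which arrays or which reference were used. For miR-590-3p at PTD 7 the estimate ran from 0.41 among arrays with a positive RT control difference to 4.22 against the controls labelled day 1, and for miR-590-5p at PTD 30 it ran from 1.34 to 2.04 in the settings drawn, with 1.08 within the run period and 1.27 without the low control, which are not drawn.

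Whether miR-590-3p followed the RT control difference from mouse to mouse was tested on deviations from the group means, which leave out the differences the arm was chosen for. Over the 35 mice, Pearson's r was 0.61 (permutation p = 0.0113 with 100000 permutations within groups, two-sided, adjusted p = 0.0452 over the 4 relations tested) and Spearman's rho was 0.507 (permutation p = 0.0166, adjusted p = 0.0663). Without the 2 mice farthest from the median of the RT control difference, r was 0.405 (permutation p = 0.107), so that the relation kept its direction but no longer passed the test. Leaving out single mice gave 0.535 to 0.706. The permutations shuffled all controls together, although these came from different run periods. Without the control group r was 0.422 (n = 28, permutation p = 0.188), and without the controls and PTD 3 it was 0.0584 (n = 23, permutation p = 0.84). Within the earliest run period it was 0.534 (n = 22, permutation p = 0.119) and within the second -0.33 (n = 10, permutation p = 0.507). Among the other assays, 8 had a higher r with the RT control difference and 367 a lower one, and the median over all 376 was 0.21.

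**Figure D3:**
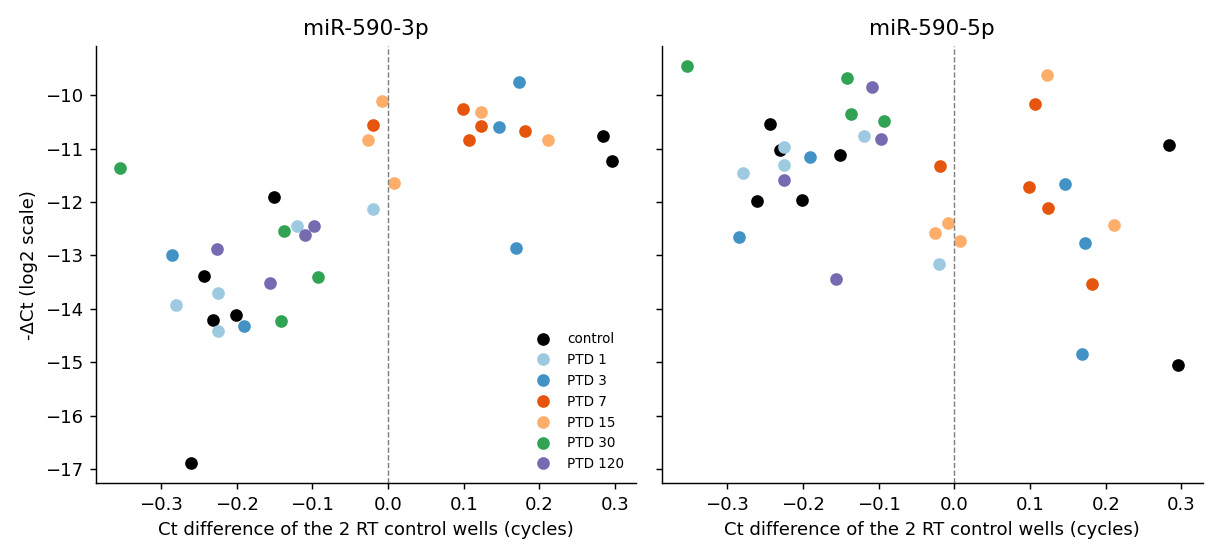
The -ΔCt of miR-590-3p (left) and miR-590-5p (right), on a log2 scale, against the Ct difference of the 2 RT control wells in cycles, with 1 point per mouse coloured by group and a dashed line at 0. The low values of miR-590-3p, down to -16.89, lay left of the line, and the 2 lowest values of miR-590-5p, -15.05 and -14.85, lay right of it.

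miR-590-5p followed another course. In the controls its -ΔCt was -11.99, -11.96 and -10.55 under the day 1 label and -11.03, -11.12, -10.93 and -15.05 under the day 30 label. The last of these mice stood about 3 units below the other 6. The 4 PTD 30 mice had -9.45, -10.48, -10.35 and -9.68. All 4 were above all 7 controls, which held at PTD 30 for 1.33% of the 376 assays. The arm was chosen for this difference, so nothing is read from that share.

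The mean of miR-590-5p was -9.99 ± 0.503 (SD, n = 4) at PTD 30 and -11.80 ± 1.53 (n = 7) in the controls, a difference of 1.81 ± 0.706 (SE) or 3.51-fold. Without the low control (replicate 4 labelled day 30) the difference was 1.27. It was 1.51 ± 0.452 against the controls labelled day 1, 2.04 ± 0.861 against those labelled day 30 and 1.08 ± 0.427 within the run period of the PTD 30 arrays, which held 2 controls. All 4 PTD 30 arrays had a negative RT control difference, and against the 5 controls with a negative one the difference was 1.34 ± 0.420. At PTD 30 the median difference over all 376 assays was 0.538, and with the median Ct as the reference miR-590-5p was 1.41 ± 0.767 above the controls.

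At the other PTDs miR-590-5p spread widely around the control mean. The PTD 1 mice had -10.76, -11.46, -11.30, -13.16 and -10.98, and the PTD 3 mice had -12.65, -11.16, -14.85, -12.78 and -11.66. The PTD 7 mice had -10.17, -13.54, -12.11, -11.72 and -11.32. The PTD 15 mice had -12.40, -12.57, -12.43, -12.73 and -9.62, of which the last was about 3 units above the other 4. The PTD 120 mice had -10.82, -9.86, -13.43 and -11.59. Each of these 5 groups overlapped the controls.

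The differences of miR-590-5p from the controls at PTDs 1, 3, 7, 15 and 120 were 0.27 ± 0.690, -0.82 ± 0.776, 0.03 ± 0.735, -0.15 ± 0.758 and 0.38 ± 0.832 (SE), with limma p values adjusted over all 376 assays between 0.794 and 0.992. With the study's thresholds (p under 0.01, more than 2-fold), miR-590-5p was a differentially expressed miRNA (DEM) at 0 of these 5 PTDs. By the same rule limma called 1.33% (PTD 1), 2.13% (PTD 3), 9.84% (PTD 7), 11.4% (PTD 15), 1.6% (PTD 30) and 1.33% (PTD 120) of the assays. The lowest unadjusted p of the arm against all 7 controls was 0.31, at PTD 3, where the difference was -1.36 without the low control, replicate 4 labelled day 30 (limma p = 0.0362, adjusted p = 0.426) and -0.26 without replicate 3 of PTD 3 (limma p = 0.732, adjusted p = 0.989), and the exact permutation p values lay between 0.376 and 0.972. With 4 or 5 mice against 7 and SEs of 0.69 to 0.83, a difference of 1 unit (2-fold) was not detectable at these PTDs.

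Between the ENU groups other than PTD 30, miR-590-5p was compared in 10 pairs by exact permutation tests, two-sided. The largest difference was 1.20 units, PTD 120 above PTD 3 (exact p = 0.262), and PTD 3 minus PTD 1 was -1.09 (exact p = 0.198), and the adjusted p over the 10 pairs was at least 0.913 throughout. By mean -ΔCt the groups stood in the order PTD 30, PTD 120 (-11.43), PTD 1 (-11.53), PTD 7 (-11.77), controls (-11.80), PTD 15 (-11.95) and PTD 3 (-12.62). Only the step from PTD 30 to PTD 120 exceeded 1 unit, and it was smaller than the SD at PTD 120, 1.51.

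The difference between the arms needs no reference RNA, since both are read on the same array. The Ct of miR-590-5p minus that of miR-590-3p was -1.41 ± 2.84 (SD, n = 7) in the controls, with a range from -4.90 to 3.83. It was 1.19 ± 1.29 (PTD 7), 1.20 ± 1.14 (PTD 15) and 0.51 ± 2.40 (PTD 3), against -1.79 ± 1.67 (PTD 1), -2.90 ± 1.18 (PTD 30) and -1.44 ± 1.10 (PTD 120). Relative to the controls it had moved by 1.93, 2.60 and 2.61 units towards miR-590-3p at PTDs 3, 7 and 15, and by -1.49 units, towards miR-590-5p, at PTD 30. The direction at PTD 30 turned with the control label. Against the day 1 controls miR-590-3p was 1.91 and miR-590-5p 1.51 higher there, and against the day 30 controls they differed by -0.86 and 2.04. Every PTD 30 mouse (-4.55 to -1.92) lay below every PTD 7 (-0.66 to 2.87) and PTD 15 mouse (-0.68 to 2.29). How many other hairpins separated in this way was not counted, so nothing is read from it. All PTD 30 arrays had a negative RT control difference and came from the second run period, while 4 of the PTD 7 and 3 of the PTD 15 arrays had a positive one and all 10 came from the earliest. In the controls and at PTD 3 the arm difference also split by that sign. It lay between -4.90 and -0.79 in the 5 controls with a negative and at 0.16 and 3.83 in the 2 with a positive RT control difference. At PTD 3 it was -3.16 and -0.34 against 1.07 to 3.02. There was no such split at PTD 7, where the array with a negative difference had 0.76, within the range of the other 4. At PTD 15 the order was reversed, with 2.29 and 1.74 in the negative arrays against 1.59, 1.08 and -0.68 in the positive ones. Since the arms were chosen for their courses, the contrast between groups is a description.

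From mouse to mouse the arms showed no relation that these data could resolve. After removal of the group means, r between them was -0.041 over the 35 mice (permutation p = 0.851, adjusted p = 0.98) and rho was 0.0924 (permutation p = 0.618, adjusted p = 0.618). Leaving out single mice moved r between -0.0997 and 0.139, the latter without control replicate 4 labelled day 30. Within the earliest run period r was 0.153 (n = 22) and within the second 0.311 (n = 10, permutation p = 0.158). Over the 7 group means r was -0.356. The RT control difference went the other way in miR-590-5p than in miR-590-3p, with r = -0.349 (permutation p = 0.0944, adjusted p = 0.189) and rho = -0.238 (permutation p = 0.201, adjusted p = 0.402). Of the other assays, 328 had a higher and 47 a lower r with it. The lowest miR-590-5p well, control replicate 4 labelled day 30, had the largest RT control difference of the 35 arrays, 0.295, and without it r was -0.144.

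**Figure D4:**
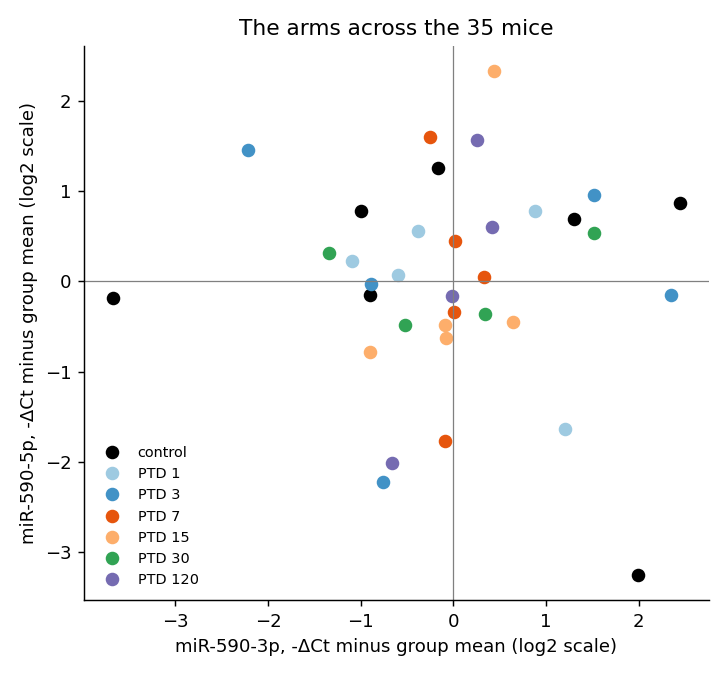
The -ΔCt of miR-590-5p against that of miR-590-3p, each minus the mean of its group (log2 scale), with 1 point per mouse coloured by group and lines at 0. The points showed no clear slope (r = -0.041, n = 35), and the largest deviations of one arm fell near the middle or on either side of the other.

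Other hairpins showed how well the arms of 1 precursor usually ran together on these arrays. Besides miR-590, 46 hairpins had an assay for each arm. Their r between arms, over the same 35 mice with group means removed, had a median of 0.406 and was above 0 in 43. The highest were miR-126, an endothelial miRNA, at 0.975 and miR-140 at 0.883, and the lowest were miR-292 at -0.132 and miR-875 at -0.0172. Of the 46 hairpins, 45 had a higher r than miR-590 and 1 a lower one. Among the 20 other hairpins of which both arms had a mean Ct above 30, as both miR-590 arms do, the median was 0.18, with a range from -0.132 to 0.583. With the median Ct as the reference, r was -0.221 for miR-590, the median of the others was 0.183 and 4 were lower than miR-590. These r values share arrays and reference RNAs, and the part of low abundance in that of miR-590 was not tested.

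**Figure D5:**
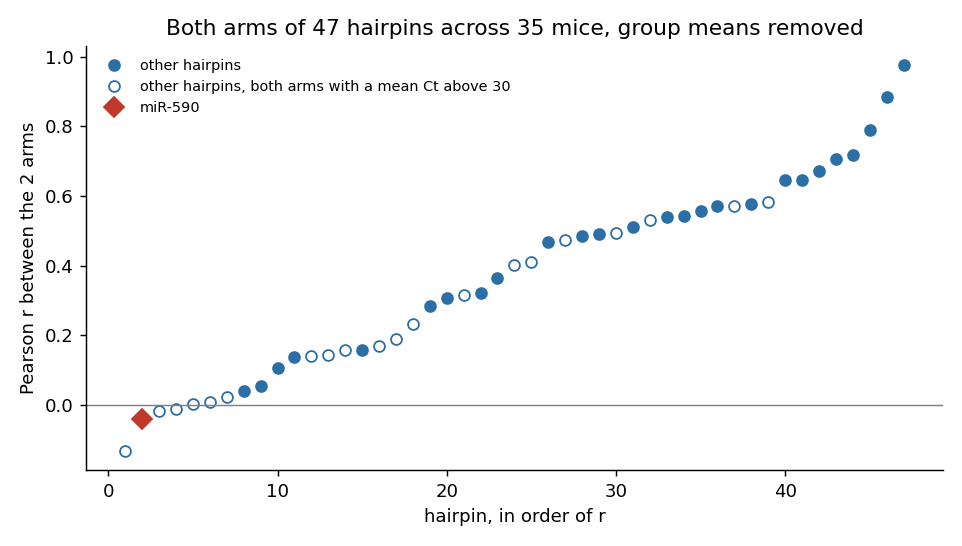
Pearson's r between the 2 arms of each of 47 hairpins over the 35 mice, with group means removed, in rising order; the red diamond is miR-590, and open circles are other hairpins of which both arms had a mean Ct above 30. miR-590 (-0.041) was the second lowest, and most of the low values belonged to hairpins with late Ct values.

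miR-21, the array's other miRNA with the seed of miR-590-5p, was at the opposite end of abundance, with a mean Ct of 16.8 that only miR-122 undercut. Its -ΔCt was 5.04 ± 0.970 (SD, n = 7) in the controls and 4.16 ± 0.971 (n = 5) at PTD 1, and then 5.27, 5.37, 5.48, 5.74 and 5.97 from PTD 3 to PTD 120. The differences from the controls ran from -0.88 ± 0.534 (SE) at PTD 1 to 0.93 ± 0.506 at PTD 120, with limma adjusted p values between 0.446 and 0.929, and miR-21 was a DEM at 0 of the 6 PTDs. The means stood in the order of the PTDs, but the controls differed by label without overlap, with 3.30 to 4.59 for day 1 and 5.55 to 5.93 for day 30. Against the day 1 controls miR-21 was 1.63 higher at PTD 30 and 1.86 higher at PTD 120 (limma adjusted p = 0.0134 and 0.0199). Against the day 30 controls it was higher by 0.00066 at PTD 30 and 0.23 at PTD 120 (adjusted p = 0.999 and 0.807), and within the run period of those arrays, which held 2 controls, by 0.12 and 0.35 (adjusted p = 0.998 and 0.992). The PTD 3, 7 and 15 arrays shared their run period with the day 1 controls only, and against these miR-21 was 1.16, 1.26 and 1.37 higher (adjusted p = 0.153, 0.0368 and 0.0217, of which the last also passed the study's thresholds). At PTD 1 miR-21 differed from the day 30 controls by -1.58 (adjusted p = 0.0687) and from the day 1 controls by 0.05. At PTD 30, where miR-590-5p was highest, miR-21 was 0.70 ± 0.492 above all 7 controls (adjusted p = 0.467). Across mice, miR-590-5p and miR-21 had an r of 0.00509 (permutation p = 0.98, adjusted p = 0.98) and a rho of 0.143 (permutation p = 0.431, adjusted p = 0.574). miR-21*, the other arm of the miR-21 hairpin, differed from the controls by -1.19 ± 0.613 at PTD 1 and by between -0.37 and 0.71 later, with adjusted p values of at least 0.473.

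The miR-34 members, named in the choice of miR-590-3p, are given beside it without a test, and all comparisons share the 7 controls. miR-34a differed from the controls by 1.25, 2.51, 1.91, 2.78, 1.98 and 0.71 in the order of the 6 PTDs. Its value at PTD 7 depended on replicate 5, which had a -ΔCt of -2.51 against a group median of 1.56, and was 2.70 without that mouse. miR-34b-5p differed by 1.16, 2.34, 3.01, 2.64, 2.17 and 0.67, and miR-34c by 0.62, 1.87, 2.33, 2.07, 1.10 and 0.40. All 3 were already above the controls at PTD 1 and still so at PTD 30 (SE between 0.33 and 0.367 at PTDs 1 and 30), where miR-590-3p differed by -0.11 and 0.33, each within its SE. At PTDs 7 and 15 the differences of miR-590-3p, 2.64 and 2.47, were of the size of theirs. Over the 7 group means, r with miR-590-3p was 0.677 for miR-34a, 0.811 for miR-34b-5p and 0.901 for miR-34c. From mouse to mouse within groups it was -0.0444, 0.0744 and 0.359. The first 3 values follow from the choice of miR-590-3p and support nothing. Among the controls miR-34b-5p had an SD of 0.361, against 2.12 for miR-590-3p.

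The assays most like each arm were listed as a description. Over the 7 group means, those most like miR-590-3p were miR-677 (r = 0.971), miR-298 (0.969), miR-466d-5p (0.963), miR-671-3p (0.956) and miR-686 (0.954). From mouse to mouse (35 deviations from group means) they were miR-125b-3p (0.776), miR-770-5p (0.744), miR-216b (0.717), miR-686 (0.714) and miR-770-3p (0.706). Only miR-686 was in both lists. Of these 9 assays, 8 had an r of 0.444 or more with the RT control difference, the exception being miR-466d-5p at 0.238. For miR-590-5p the most like over group means were miR-698 (0.924), miR-875-5p (0.882), miR-801 (0.865), miR-380-5p (0.843) and miR-297b-3p (0.839). From mouse to mouse they were miR-453 (0.656), miR-801 (0.652), miR-675-5p (0.642), miR-684 (0.63) and miR-361 (0.621), all with a negative r with the RT control difference, between -0.756 and -0.175. In the list over group means that r had both signs, with 0.054 (miR-698), 0.151 (miR-875-5p), -0.175 (miR-801), 0.378 (miR-380-5p) and -0.0981 (miR-297b-3p). The lists of the 2 arms had no assay in common.

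miRNAs of other cells of the liver were followed over the same groups. miR-142-3p, miR-142-5p and miR-223 of blood cells, miR-126-3p of endothelium and miR-451 and miR-144 of red cells were detected on every array. In the controls and at PTDs 7, 15 and 30, in this order, the mean -ΔCt of miR-142-3p was -0.52, -0.87, -0.76 and 0.30, that of miR-142-5p -5.24, -6.39, -6.19 and -4.34, and that of miR-223 -0.88, -0.71, -0.43 and -0.32. It was 3.87, 4.21, 4.43 and 4.55 for miR-126-3p, 2.67, 3.37, 3.70 and 3.33 for miR-451, and -5.99, -5.20, -4.47 and -5.22 for miR-144. The 2 miR-142 arms were thus lower than in the controls and the other 4 higher in mean level at PTDs 7 and 15, where miR-590-3p was highest, and all 6 were higher at PTD 30. The median difference from the controls over all 376 assays was 0.185, 0.36 and 0.538 at PTDs 7, 15 and 30. Of the hepatocyte miRNAs, in the same order of groups, miR-122 had 7.59, 7.77, 7.01 and 8.12. miR-192 had 4.56, 5.04, 5.03 and 5.19, and miR-194 had 5.08, 5.32, 5.28 and 5.73. At PTD 15 miR-122 was thus below the controls and the other 2 were above. The part of these cells in the levels of the miR-590 arms was not tested.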

How the data were processed

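The authors deposited, for each of the 35 arrays, the Ct of every well without normalization, a cycle number on a log2 scale, read with SDS 2.3 at a fixed threshold of 0.15 over 40 cycles. Wells were named from the study's own assay list. Samples were grouped by their labels. -ΔCt was computed against snoRNA251, snoRNA202, snoRNA142 and U6, and the 15 of the miRNA wells without a Ct were treated as missing. Each PTD was compared with the 7 controls in limma (version 3.58.1, R 4.3.3), fitted to all 376 miRNAs, with Benjamini-Hochberg adjustment. The thresholds were those of the methods, p under 0.01 and a fold change above 2; their own test was a t-test, run here as an alternative. Permutation tests and figures used Python 3.11.15, numpy 2.4.6, scipy 1.17.1, pandas 2.3.3 and matplotlib 3.10.9. The tests were tested on simulated data.

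The miRNAs named are the 2 arms, miR-21 and miR-21*, 3 miR-34 members, the 5 assays most like each arm over group means and the 5 over mice, and the 2 highest and 2 lowest hairpins. The members and lists were chosen with earlier results of these data known. Run periods are those in the file headers. Alternatives were other references, controls, Ct limits, a covariate, a replicate block and leaving out each mouse. The splits by the sign of the RT control difference, and the relations within the second run period and without the controls and PTD 3, were chosen after seeing the data. The number of arrays limits the precision. Since each mouse gave a single array, p values measure the spread between mice together with any spread between wells and run periods.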

Additional observations from a re-analysis of the deposited data

Results flagged for a closer look

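In 21 groups, 7 for each arm and 7 for miR-21, the highest and the lowest sample were checked for a gap to its nearest neighbour that was large against the range of the group, and 3 groups had such a sample. Chance gives about 1 in 20. In the controls, replicate 4 labelled day 30 had a -ΔCt of miR-590-5p of -15.05, against -11.99 to -10.55 in the other 6. At PTD 15, replicate 5 had -9.62 for miR-590-5p, against -12.73 to -12.40 in the other 4. The same array had 6.37 for miR-21, against 5.14 to 5.46, and its reference RNAs had a mean Ct of 23.5, the highest of the 35 arrays.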

How the results depend on the processing

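The miR-590-3p difference moved with the label of the controls at every PTD, with a turn of sign at PTDs 1, 3, 30 and 120. It moved by more than the pooled SD of the ENU and control mice compared among arrays with a positive RT control difference, where it was 0.414 at PTD 7 and 0.0633 at PTD 15 (the cause was not tested). Settings that only changed the spread, the assays fitted or the wells without a Ct could not move it. Leaving out single mice gave 2.02 to 3.04 at PTD 7 and 1.85 to 2.87 at PTD 15. miR-590-5p stayed above the controls at PTD 30 in every setting, and was a DEM at none of the other 5 PTDs in any of them, but its small differences changed sign. At PTD 1 it was -0.0128 with Ct above 35 set to 35, -0.0355 with the day 1 controls, -0.0882 with the covariate and -0.205 among negative arrays. At PTD 7 the same first 2 settings gave -0.307 and -0.275, the run period -0.275 and the references without U6 -0.0226. At PTD 15 it was 0.0193 without snoRNA251, 0.0839 with the day 30 controls, 0.184 with the covariate and 1.4 among positive arrays. At PTD 120 it was -0.0418 with the median Ct, -0.352 within the run period and -0.0984 among negative arrays. Leaving out single mice gave -0.27 to 0.679 at PTD 1, -1.36 to -0.261 at PTD 3, -0.51 to 0.473 at PTD 7, -0.728 to 0.0633 at PTD 15 and -0.164 to 1.05 at PTD 120. The lowest values at PTDs 1, 3, 7 and 120 were without control replicate 4 labelled day 30, and at PTD 15 without replicate 5 of that PTD.

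For miR-21 the day 1 controls gave 0.0509 at PTD 1 and, past the threshold, 1.37 at PTD 15 (also within the run period, 1.37), 1.63 at PTD 30 and 1.86 at PTD 120. The day 30 controls gave -1.58 at PTD 1, past the threshold, -0.474 at PTD 3, -0.372 at PTD 7 and -0.259 at PTD 15. Positive arrays gave -0.337, -0.656 and -0.188 at PTDs 3, 7 and 15, the covariate gave -0.0106 at PTD 7, and single mice left out gave -0.0658 to 0.396 at PTD 3.

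The relation of the RT control difference with miR-590-3p lost its call with Ct without normalization (r = 0.534), without the controls (0.422), within the earliest run period (0.534), without the 2 farthest mice (0.405) and without the controls and PTD 3 (0.0584), and was -0.33 within the second period. That with miR-590-5p gained one with Ct without normalization (-0.524, adjusted p = 0.0294). r between the arms was 0.0688 with Ct above 35 set to 35, 0.0573 without the controls, 0.153 and 0.311 within the run periods and 0.127 without the controls and PTD 3. r of miR-590-5p with miR-21 was -0.331 with the median Ct and -0.281 with Ct without normalization.

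The numbers of DEMs over all assays were 5, 8, 37, 43, 6 and 5 in the order of the 6 PTDs. The median Ct gave 3, 18 and 68 at PTDs 1, 3 and 7. An adjusted p under 0.05 gave 0, 3, 2 and 0 at PTDs 1, 3, 30 and 120, where 19 and 33 assays had an unadjusted p under 0.05 at PTDs 1 and 120. The methods' t-test gave 5 at PTD 3 and 1 at PTD 120, and after Benjamini-Hochberg adjustment 0, 3, 22, 2 and 0 at PTDs 1, 3, 7, 30 and 120. Same-numbered mice are different animals, and nothing pairs them: with the replicate block the number was 5, 27 and 3 at PTDs 3, 15 and 120, the miR-590-3p difference at PTD 7 was 2.48 and the miR-590-5p difference at PTD 30 was 2.01. Correlations of deviations between same-numbered ENU and control mice lay between -0.191 and 0.519. Of the 4 ENU mice compared at each PTD, 2, 2, 0, 0, 0 and 1 correlated best with their own number, in the order of the 6 PTDs.

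Ct values above 35 limit both arms, and the study's supplement and the deposited file differ for replicate 3 of PTD 3. Without it miR-590-3p was 1.3 and miR-590-5p -0.261 from the controls at PTD 3.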
